A study of Monodelphis domestica with 7 samples.

Results

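Transcript levels of 4 genes of interleukin-1 (IL-1) signalling and the inflammasome were examined in the spinal cord of the grey short-tailed opossum (Monodelphis domestica), a marsupial whose pups are born very immature. The genes were taken by identifier from the 21314 genes of the count table: IL1B (ENSMODG00000013815), IL1R1 (ENSMODG00000002332), a gene described by the study as similar to the caspases CASP4, CASP5 and CASP12 (ENSMODG00000027892, CASP4-like below) and a gene described as similar to PYCARD (ENSMODG00000002568, PYCARD-like below). All 4 were among the 13534 genes with enough reads to be tested. They were named in the study from these same libraries, all 4 as raised after injury at P28 and IL1B and IL1R1 also as raised after injury at P7, so these injury comparisons are not independent evidence of their direction. The P7 comparison was not used to list CASP4-like and PYCARD-like. The comparison of the control cords with each other shares the P29 control with that selection, and the difference between the ages is made of the injury comparisons, so neither is free of it.

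RNA was sequenced from the cord segment rostral to a complete transection at thoracic level 10, taken 24 h after the cut at postnatal day 7 or 28 (P7+24 h, 2 libraries; P28+24 h, 2 libraries), and from the matching segment of uncut cords at P8 (2 libraries) and P29 (1 library). Pups of both sexes were used, from a laboratory colony with no genetic modification named. The study's methods describe libraries made from pools of individuals, but the sources do not settle how many animals stand behind each library. By the study's account of the animals, the P7 injured pups and their controls came from separate litters, and the P28 injured pups and their anaesthetised, uninjured controls usually shared litters. At P7, litter and injury therefore cannot be told apart. The libraries were sequenced in 2 runs from separately collected samples, and no P29 control of the second run is among the 7 libraries. The spread between libraries is thus the spread between separately collected samples.

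IL-1β is a secreted cytokine that starts and amplifies innate inflammation. It is made as an inactive precursor after an immune cell senses damage or microbes, and is cut to its active form by caspase-1 in the inflammasome, a complex built from a sensor, the adaptor ASC (encoded by PYCARD) and the caspase. Caspases of the CASP4/CASP5/CASP12 family are relatives of caspase-1, of which CASP4 and CASP5 sense bacterial lipopolysaccharide inside the cell and cleave the pore protein gasdermin D. Released IL-1β acts on the receptor encoded by IL1R1, which signals through MyD88 and NF-κB. In the central nervous system, microglia and infiltrating monocytes and macrophages are known as major sources of IL-1β, and IL1R1 is well known on endothelial cells. Precursor cutting and release cannot be seen in transcript counts.

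The libraries held 3332232 to 6256074 reads counted in genes, and all 3 groups with a library in each run were deeper in the second. Levels are given as CPM, reads scaled to a library of 1000000, after TMM scaling, an edgeR adjustment for differences in library composition; 95% intervals on a single library are exact Poisson intervals and cover counting error only. Oligodendrocyte markers marked the older cords, and 5 of the 8 listed markers could be tied to an identifier. In runs 1 and 2 their summed level was 146.3 and 370.7 CPM in the P8 controls and 125.5 and 364.6 CPM at P7+24 h. It was 94340 CPM in the P29 control and 51210 and 65240 CPM at P28+24 h. The P28+24 h levels were thus 0.5428 times (run 1) and 0.6915 times (run 2) the single P29 control. The neuron markers that could be tied to an identifier, 2 of 10, summed to 109 to 187 CPM in all 7 libraries, but they did not move together. From the P29 control to P28+24 h in run 1, SLC18A3 went from 102.6 to 40.26 CPM and TAC1 from 58.05 to 130 CPM. In run 2 at P28+24 h they stood at 127.3 and 48 CPM. The sum is therefore no measure of a steady neuron level. Marker sums of other cell types also moved. The astrocyte marker sum (3 of 8) was higher at P7+24 h than in the P8 controls in both runs, at 1.48 times (95% counting interval 1.37 to 1.59) and 1.41 times (1.36 to 1.47), and stood at 0.904 times (run 1) and 1.55 times (run 2) the P29 control at P28+24 h. It was mostly GFAP, with 1546 of 1722 and 6658 of 7429 reads at P7+24 h. Within runs 1 and 2, log2 changes at P7+24 h were 0.665 and 0.567 for GFAP and −0.022 and −0.063 for MLC1. Those of KCNJ10 were −0.614 and 0.222. In run 1 at P28+24 h they were −0.093 for GFAP, −1.28 for MLC1 and −1.277 for KCNJ10. Platelet and megakaryocyte markers (2 of 5) summed to 11.9 to 29.2 CPM in the P8, P7+24 h and P29 cords and to 59.7 and 73.3 CPM at P28+24 h. The P28+24 h sum was mostly VWF, at 48.03 and 68.26 CPM. ITGA2B stood at 11.65 and 5.027 CPM there. It had 15.84 and 3.46 CPM in the P8 controls, 12.34 and 2.841 CPM at P7+24 h and 2.299 CPM at P29. Skeletal muscle markers (7 of 9) summed to 5.69 to 13.5 CPM in the P8, P7+24 h and P29 cords, and to 166 CPM (run 1) and 61.8 CPM (run 2) at P28+24 h. Erythroid markers (5 of 7) lay between 56.1 and 529 CPM and were higher in run 1 than in run 2 in each group that had both. Apart from GFAP, taken from the study's protein list, the markers of this paragraph were listed by the study as changed at P28+24 h. That listing came from these same libraries, so their change with injury at P28 is not independent evidence. The part of these cell types in the levels of the 4 genes was not tested.

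IL1B, the ligand, was not detected in the young control cords and was highest in the older injured cords. No IL1B read was counted in either P8 control library. The exact 95% intervals reach up to 0.913 CPM in run 1 and 0.608 CPM in run 2. A floor of 3 reads stands at 0.743 and 0.494 CPM. At P7+24 h there were 7 reads in run 1 (1.84 CPM, 95% interval 0.739 to 3.79) and 8 reads in run 2 (1.2 CPM, 0.516 to 2.36). The P29 control held 3 reads (0.862 CPM, 0.178 to 2.52). At P28+24 h the counts were 47 in run 1 (16.6 CPM, 12.2 to 22.1) and 110 in run 2 (17.8 CPM, 14.7 to 21.5). In order of level the groups ran P8 control, P29 control, P7+24 h and P28+24 h. The P29 control and P7+24 h intervals overlapped, and the order of these neighbours is not settled by such low counts. Both P28+24 h libraries stood well above the other 5.

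**Figure D1:**
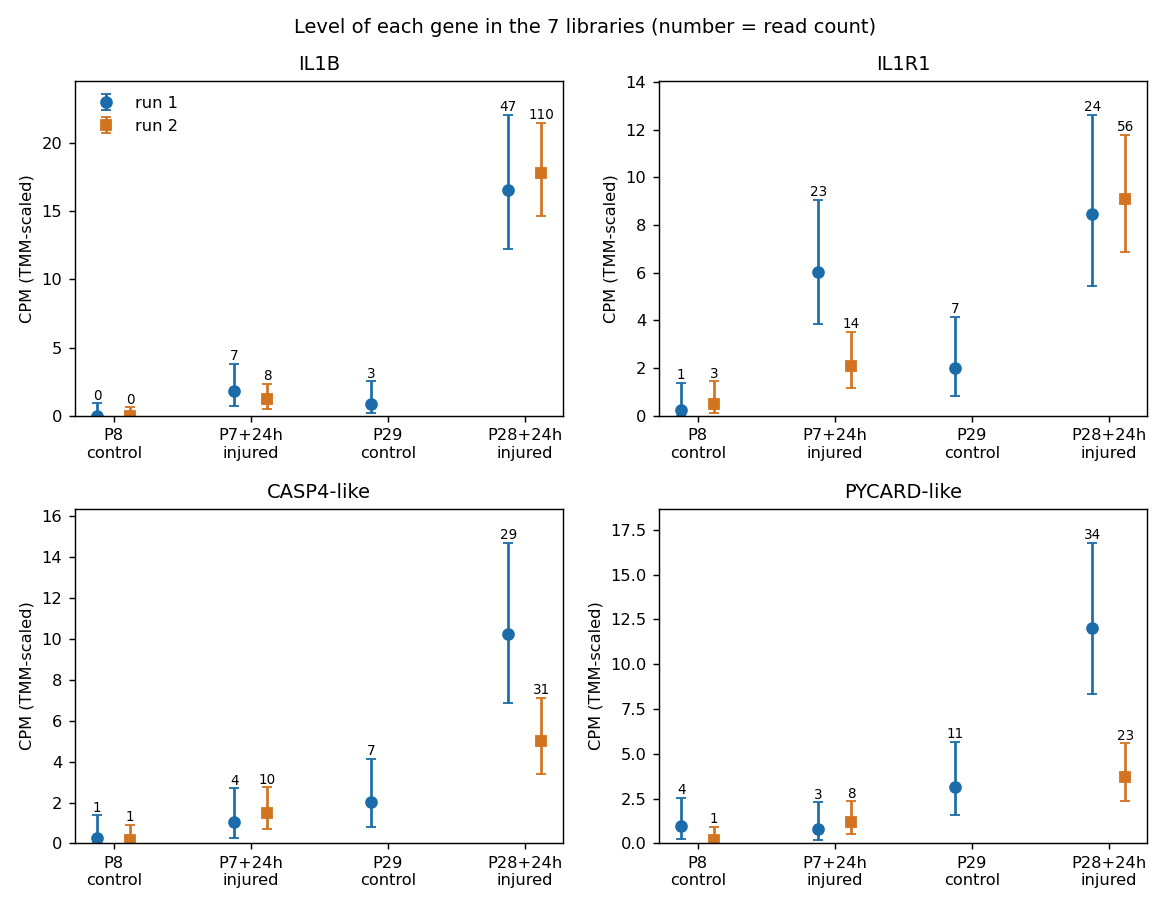
Level of each of the 4 genes in the 7 libraries, in CPM after TMM scaling on a linear axis that differs between panels; points are libraries (circles run 1, squares run 2), bars are exact 95% Poisson intervals and the numbers are read counts. The P28+24 h libraries are the highest for each gene, between 16.6 and 17.8 CPM for IL1B, while for CASP4-like and PYCARD-like the run 1 library lies above the run 2 library.

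IL1R1, which encodes the signalling receptor for IL-1, was close to the limit of detection in the young control cords, with 1 read (0.248 CPM) and 3 reads (0.494 CPM) in runs 1 and 2. After injury at P7 it reached 23 reads in run 1 (6.04 CPM, 3.83 to 9.06) and 14 reads in run 2 (2.09 CPM, 1.15 to 3.51). The P29 control had 7 reads (2.01 CPM, 0.809 to 4.15), and the P28+24 h libraries 24 reads (8.48 CPM, 5.43 to 12.6) and 56 reads (9.08 CPM, 6.86 to 11.8). The injured libraries were thus above their own controls at both ages without overlap, but the P7+24 h libraries were far apart: the run 2 level was 0.347 of the run 1 level (95% counting interval 0.165 to 0.703). The second P7+24 h library was near the P29 control, and the first was within counting error of the P28+24 h library of the same run, which was 1.4 times as high (0.759 to 2.6).

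CASP4-like had 1 read in each P8 control library (0.248 and 0.165 CPM). It had 4 reads (1.05 CPM, 0.286 to 2.69) and 10 reads (1.495 CPM, 0.717 to 2.75) at P7+24 h, and 7 reads in the P29 control (2.01 CPM, 0.809 to 4.15). The injured P28+24 h libraries held 29 reads (10.2 CPM, 6.86 to 14.7) and 31 reads (5.03 CPM, 3.42 to 7.14). Unlike for IL1B and IL1R1, the uninjured P29 cord lay above both P7+24 h libraries, though within their intervals. In order of level the groups ran P8 control, P7+24 h, P29 control and P28+24 h, but the intervals of neighbouring groups overlapped in part. How many genes share this order was not counted.

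PYCARD-like, the candidate adaptor, gave the flattest pattern at the younger age. The P8 controls had 4 reads (0.99 CPM, 0.27 to 2.54) and 1 read (0.165 CPM), and the P7+24 h libraries 3 reads (0.788 CPM, 0.163 to 2.3) and 8 reads (1.2 CPM, 0.516 to 2.36), so the young injured and control libraries overlapped. The P29 control had 11 reads (3.16 CPM, 1.58 to 5.66). At P28+24 h there were 34 reads in run 1 (12 CPM, 8.32 to 16.8) but 23 reads in the deeper run 2 (3.73 CPM, 2.36 to 5.6). The run 2 library was at 0.311 of the run 1 level (0.175 to 0.543) and within counting error of the P29 control, at 1.18 times its level (0.553 to 2.68); CASP4-like also differed between these libraries, at 0.491 (0.286 to 0.844), whereas IL1B and IL1R1 did not go beyond counting error, at 1.07 (0.757 to 1.55) and 1.07 (0.653 to 1.81).

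The P7+24 h libraries were compared with the P8 controls to ask which of these genes rose after an injury in a cord that still allows axon growth. Every P7+24 h library was above every P8 control for 3 of the 4 genes (IL1B, IL1R1 and CASP4-like), an arrangement seen in 8.55% of the genes tested, and with each control library taken at no less than its 3-read floor IL1R1 was also at least 2-fold apart, as were 0.288% of genes. For IL1B the level was 2.48-fold (run 1) and 2.42-fold (run 2) the 3-read floor of the control library, taking the injured counts as they stand. The exact 95% counting intervals of its ratios to the control began at 1.53 (run 1) and 1.55 (run 2). Within-run ratios of CPM were 24.4 (3.96 to 1005) and 4.24 (1.18 to 23.0) for IL1R1, and 4.24 (0.42 to 209) and 9.08 (1.29 to 394) for CASP4-like. For PYCARD-like they were 0.796 (0.117 to 4.7) in run 1 and 7.26 (0.973 to 322) in run 2, on opposite sides of 1. In the edgeR quasi-likelihood fit over all 7 libraries, the log2 fold changes were 3.26 ± 0.78 (SE) for IL1R1, 2.56 ± 0.82 for CASP4-like and 0.93 ± 1.07 for PYCARD-like. That of IL1B, 5.83 ± 0.99, depends on the small count added to its zeros and is no measure of size. Each SE given here is approximate: the size of the change divided by the square root of its test statistic. The change of IL1R1 was 2.35 without the first P7+24 h library, 3.86 without the second and 3.85 without the second P8 control, and that of PYCARD-like was 2.46 without the first and 0.04 without the second P8 control.

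A gene passed where its fold was 2 or more and its adjusted p below 0.05. None of the 4 did at P7+24 h in the edgeR quasi-likelihood test (adjusted p = 1 for each, 0% of genes called as higher), although 3 were higher at an unadjusted p under 0.05, as were 0.488% of genes. With the sequencing run as a block the same edgeR test called none of them either (smallest adjusted p = 0.559, for IL1B and IL1R1; 0.0148% of genes called). The edgeR likelihood ratio test with that block, which takes less account of the uncertainty of the spread, called IL1B (adjusted p = 0.00678) and IL1R1 (adjusted p = 0.00419) with 0.266% of all genes, and not CASP4-like (adjusted p = 0.532) or PYCARD-like (adjusted p = 1). DESeq2 and the edgeR exact test called none of the 4, and 0.0148% and 0.0369% of all genes.

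**Figure D2:**
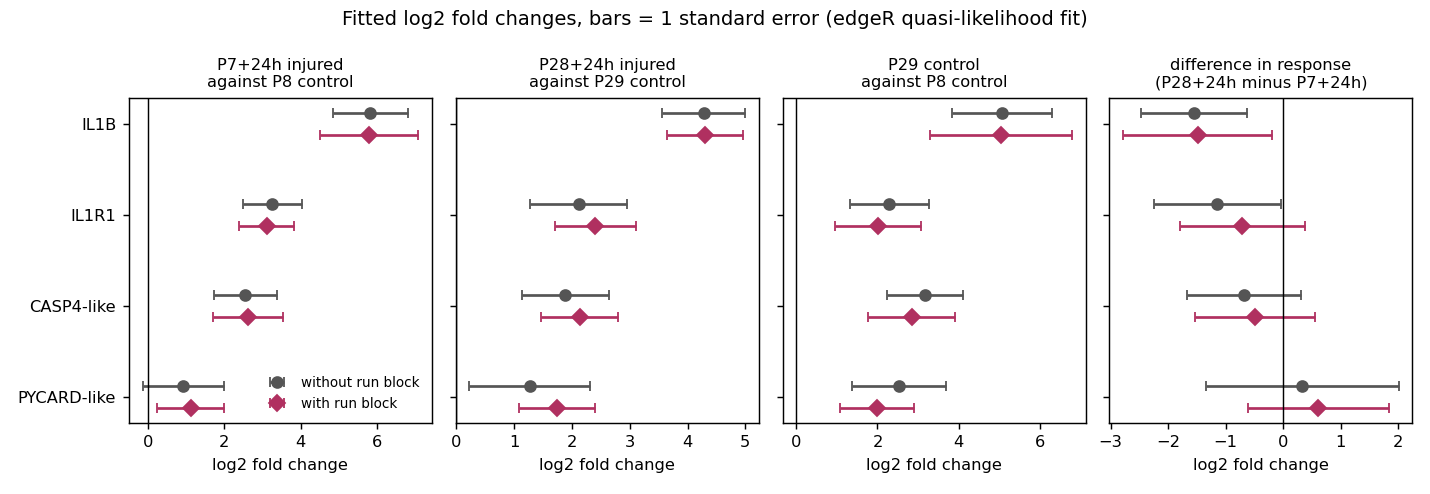
Fitted log2 fold changes of the 4 genes in the 3 comparisons and in the difference between the ages, on the x axis (ranges differ between panels); points are estimates of the edgeR quasi-likelihood fit without (circles) and with (diamonds) the sequencing run as a block, and bars are 1 approximate standard error, derived from the test statistic. IL1B lies farthest from 0 after injury at both ages (5.83 and 4.28, the first dependent on the count added to its control zeros), and the bar of PYCARD-like at P7+24 h without the block (0.93 ± 1.07) crosses 0.

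At P28+24 h all 4 genes were higher in both injured libraries than in the single P29 control, as were 22.2% of the genes tested; IL1B, IL1R1 and CASP4-like were at least 2-fold higher in both, with the control at no less than its floor, as were 2.03% of genes. Within run 1, which holds both conditions, IL1B was at 19.2 times the control level (95% counting interval 6.2 to 96.7), CASP4-like at 5.09 times (2.18 to 13.8), IL1R1 at 4.21 times (1.76 to 11.6) and PYCARD-like at 3.8 times (1.88 to 8.31). The fitted log2 fold changes were 4.28 ± 0.71 (SE) for IL1B, 2.11 ± 0.84 for IL1R1, 1.88 ± 0.75 for CASP4-like and 1.27 ± 1.04 for PYCARD-like. All 4 of these folds rest on 1 control library with 3 to 11 reads for each gene.

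In the edgeR quasi-likelihood test without the run as a block none of the 4 passed (adjusted p = 1 for each, 0% of genes called as higher), and 3 were higher at an unadjusted p under 0.05, as were 0.961% of genes. With the block IL1B rose (log2 fold change 4.31 ± 0.66, edgeR adjusted p = 0.0298) in a fit that called 0.584% of genes as higher, and IL1R1 (2.40 ± 0.70, adjusted p = 0.133), CASP4-like (2.13 ± 0.66, adjusted p = 0.149) and PYCARD-like (1.73 ± 0.66, adjusted p = 0.226) did not pass. The edgeR exact test also called IL1B alone of the 4 (adjusted p = 0.0345, 0.0148% of genes higher), and DESeq2 called none (0% of genes higher). The likelihood ratio test with the block called IL1B (adjusted p = 1.03e-07), IL1R1 (adjusted p = 0.024) and CASP4-like (adjusted p = 0.0339), with 2.61% of genes higher. Without the first P28+24 h library the fitted change of PYCARD-like dropped from 1.27 to 0.23, and that of CASP4-like from 1.88 to 1.30; without the second P28+24 h library that of PYCARD-like was 1.85.

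The control cords were compared with each other to see whether these genes differ with age in the absence of injury. All 4 genes were higher in the P29 control than in both P8 controls, as were 40.4% of the genes tested, and IL1R1, CASP4-like and PYCARD-like were at least 2-fold above both controls and their floors, as were 12% of genes, so the arrangement is a common one between these ages. For IL1B the 3 reads at P29 are no more than the floor, and no fold is given. Within run 1 the ratios were 8.13 (1.04 to 366) for IL1R1 and for CASP4-like, and 3.19 (0.946 to 13.7) for PYCARD-like. The fitted log2 fold changes were 3.17 ± 0.93 (SE) for CASP4-like, 2.54 ± 1.16 for PYCARD-like and 2.30 ± 0.97 for IL1R1. That of PYCARD-like was 4.06 without the first P8 control and 1.65 without the second, and that of IL1R1 1.97 and 2.89. No member passed the edgeR quasi-likelihood test (adjusted p = 0.127 for IL1B, 0.154 for CASP4-like, 0.277 for IL1R1 and 0.307 for PYCARD-like, with 1.71% of genes called as higher). At an unadjusted p under 0.05, 2 of the 4 were higher, as were 11.7% of genes. The edgeR test with the run block left all 4 short of the threshold (adjusted p = 0.054, 0.0703, 0.179 and 0.128 in the same order of genes, 12.5% of genes called as higher). The likelihood ratio test with the block called IL1B, CASP4-like and PYCARD-like (adjusted p = 0.0185, 0.0229 and 0.0476) in a fit that called 13.6% of genes as higher. The edgeR exact test and DESeq2 called none of the 4, with 5.73% and 4.29% of genes called as higher; DESeq2 gave no adjusted p for CASP4-like and PYCARD-like.

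A direct comparison of the injured cords showed higher levels at the older age for each gene: both P28+24 h libraries were above both P7+24 h libraries for all 4, as were 25.1% of genes tested, and at least 2-fold above for IL1B, CASP4-like and PYCARD-like, as were 7.03% of genes (with the P7+24 h libraries at no less than their floors). IL1B was at 9.03 times the P7+24 h level in run 1 (4.05 to 23.7) and 14.9 times in run 2 (7.31 to 35.4). CASP4-like was at 9.75 times (3.42 to 38.2) and 3.36 times (1.61 to 7.69). PYCARD-like was at 15.2 times (4.79 to 77.5) and 3.12 times (1.35 to 8.06), and IL1R1 at 1.4 times (0.759 to 2.6) and 4.34 times (2.38 to 8.44). Of the 4 genes, PYCARD-like had the ratios that lay farthest apart between the runs.

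A higher level is not a larger response, since the controls differ as well. The log2 response to injury at P28 minus that at P7 was −1.55 ± 0.92 (SE) for IL1B, −1.15 ± 1.11 for IL1R1, −0.67 ± 0.99 for CASP4-like and 0.34 ± 1.68 for PYCARD-like, and no difference passed the edgeR quasi-likelihood test (adjusted p = 1.00 for each, unadjusted p from 0.262 to 0.848; 0% of genes called). The value for IL1B and its standard error again depend on the count added to the zeros of its P8 controls. With the run block the adjusted p-values were 0.784 to 0.932 (edgeR, 0.0369% of genes called), and DESeq2 and the likelihood ratio test called none of the 4 (0% and 1.48% of genes). The injury responses of these 4 genes were therefore not shown to differ between P7 and P28. The standard errors of 0.92 to 1.68 are approximate and do not rank the genes by precision. Differences of several fold either way remain possible.

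In whole cord, fewer cells of a type and less RNA per cell cannot be told apart, so markers of the myeloid cells known to make IL-1β were read beside the 4 genes. Of 13 microglia and macrophage markers fixed as a list, 11 could be tied to an identifier (CSF1R, C1QA and SPI1 among them), and their summed level was 38.1 and 43.8 CPM in the P8 controls, 116 and 174 CPM at P7+24 h, 159 CPM in the P29 control and 528 and 407 CPM at P28+24 h. TREM2 was at 0 in the first P8 control, and all other markers of this list with an identifier had reads in every library. All 11 markers were listed by the study as changed after injury at P7, P28 or both in these libraries, so their rise with injury was fixed by that choice and is not independent evidence. It also enters the ratios below. Neutrophil markers (3 of 7 with an identifier) summed to 17.1 and 3.63 CPM in the P8 controls, 26.0 and 6.73 CPM at P7+24 h, 5.46 CPM at P29 and 17.3 and 18.2 CPM at P28+24 h. They did not all move together. CSF3R stood at 4.704 and 2.801, 4.465 and 3.589, 0.8621, and 2.119 and 7.459 CPM in the same order. At P7+24 h it was below the P8 control in run 1 and above it in run 2. S100A9 was at 0 in the second P8 control. The neutrophil markers with an identifier were also listed by the study as changed at P28+24 h, so their level there is not independent evidence either.

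Set against 1000 reads of the 11 myeloid markers, the 4 genes are given with 95% counting intervals. IL1B stood at 0 and 0 in the P8 controls (intervals up to 24.2 and 14), 15.9 (6.34 to 32.98) and 6.87 (2.96 to 13.6) at P7+24 h, 5.42 (1.11 to 15.9) at P29 and 31.4 (23.0 to 42.02) and 43.9 (35.9 to 53.1) at P28+24 h. Both P28+24 h libraries were thus above the P29 control beyond counting error, and at P7+24 h the intervals overlapped those of the controls. IL1R1 ran at 6.49 and 11.3, 52.2 and 12, 12.6, and 16.1 and 22.3 in the same order; the first P7+24 h library (32.7 to 79.3) was the highest, and its interval overlapped those of the P8 controls but not that of the second P7+24 h library (6.55 to 20.3). For CASP4-like, at 6.49 and 3.76, 9.07 and 8.59, 12.6, and 19.4 and 12.4, the intervals of all 7 libraries overlapped. PYCARD-like ran at 26.0 and 3.76, 6.8 and 6.87, 19.9, and 22.7 and 9.17. The first of these rests on 4 reads, and its interval (6.99 to 67.9) overlapped those of the others. The P28+24 h libraries differed (15.7 to 31.9 against 5.8 to 13.8). The part of the myeloid marker level in the changes of these genes was not tested.

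**Figure D3:**
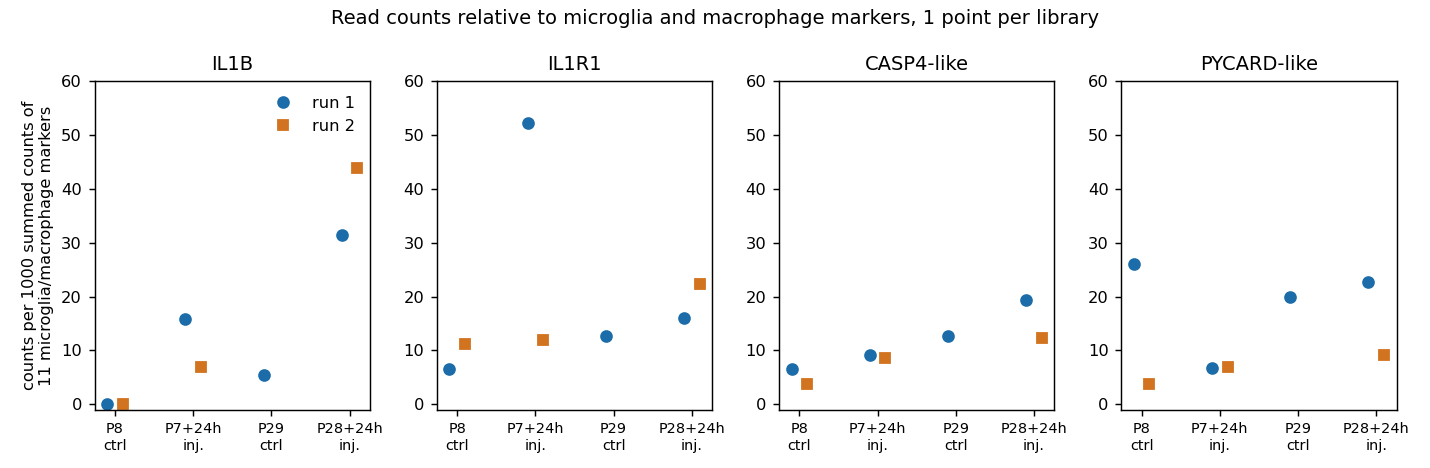
Read counts of each of the 4 genes per 1000 summed reads of 11 microglia and macrophage markers (y axis, linear, same range in all panels), 1 point per library, circles run 1 and squares run 2. IL1B is at 0 in both P8 controls and at 31.4 and 43.9 at P28+24 h, and CASP4-like lies between 3.76 and 19.4; the PYCARD-like point at 26.0 rests on 4 reads.

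Further genes of the pathway were sought in lists of IL-1 ligands, receptors, adaptors and kinases, NF-κB proteins, inflammasome components and genes known to rise after IL-1. Of 85 symbols, 10 (11.8%) could be tied to an identifier, the 4 genes above and 6 more. None of the 14 adaptors and kinases was among them. Other ligands and decoys, such as IL1A or IL1RN, were not analysed here. All 6 further genes were listed by the study from these libraries as raised at P28+24 h, and CEBPD also at P7+24 h. Their direction there is therefore not independent evidence, and the lists cannot be described as a whole.

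Among inflammasome genes, GSDMD, which encodes the pore-forming gasdermin D, had 3 and 5 reads in the P8 controls, 6 and 20 at P7+24 h, 3 at P29 and 21 and 41 at P28+24 h. PSTPIP1, whose protein binds the inflammasome regulator pyrin, had 0 and 1, 3 and 5, 0, and 11 and 10 reads in that order. Both were lowest in control cords at either age; neither passed the edgeR quasi-likelihood test at P28+24 h, with the block (adjusted p = 0.112 and 0.133) or without it. BCL3, an atypical IκB protein of the NF-κB family, had 8 and 2, 12 and 11, 7, and 36 and 64 reads (adjusted p = 0.0655 at P28+24 h with the block).

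The remaining genes are known to rise after IL-1 but also have other inducers. CEBPD, a transcription factor of the acute-phase response, had 24 and 22 reads in the P8 controls, 53 and 79 at P7+24 h, 54 at P29 and 116 and 291 at P28+24 h. Complement C3 had 6 and 12, 12 and 46, 37, and 97 and 480 reads, and LBP, the lipopolysaccharide-binding protein, 1 and 2, 5 and 17, 17, and 75 and 282 reads. In the edgeR quasi-likelihood test with the run block, C3 (log2 fold change 1.74 ± 0.32, adjusted p = 0.0393) and LBP (2.43 ± 0.38, adjusted p = 0.0283) rose at P28+24 h and CEBPD just missed (1.58 ± 0.33, adjusted p = 0.0557). The same fit called all 3, and 12.5% of all genes, as higher in the P29 than in the P8 controls (adjusted p = 0.00639 for CEBPD, 0.000262 for C3 and 0.000637 for LBP). Without the block 0 of the 6 passed in either injury comparison. The likelihood ratio test with the block called 1 (CEBPD) at P7+24 h, where it called 0.266% of all genes and where the study had listed CEBPD. It called all 6 at P28+24 h, where it called 2.61% of all genes and where the study had listed all 6.

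**Figure D4:**
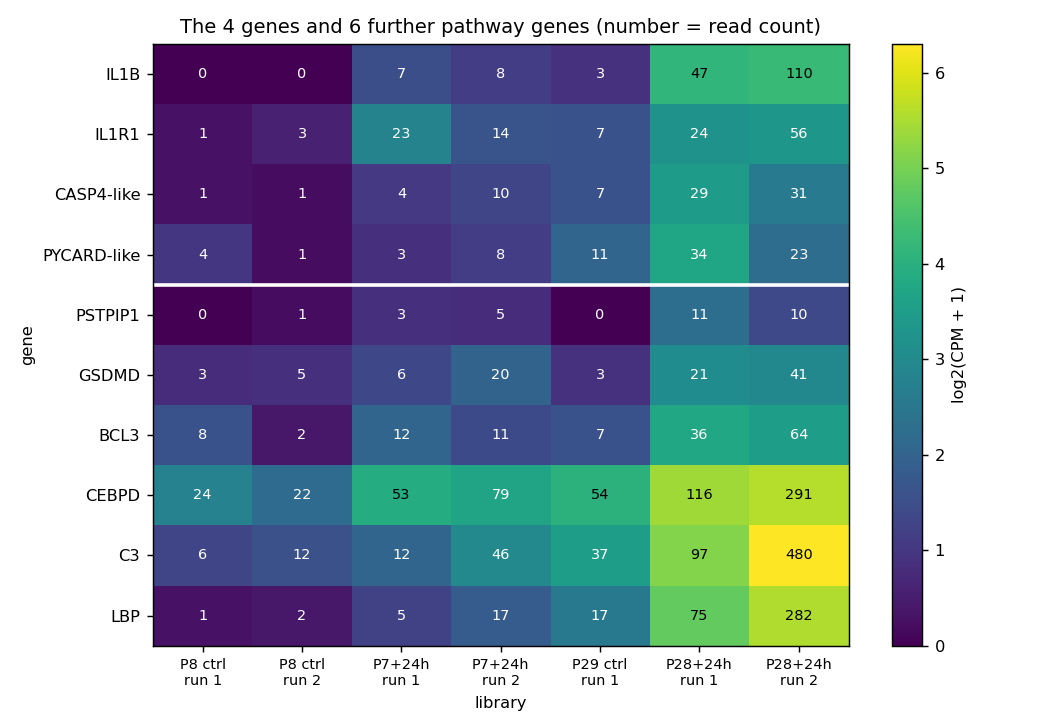
The 4 genes (above the white line) and 6 further genes of the pathway lists in the 7 libraries; colour is log2(CPM + 1) and the numbers are read counts. IL1B goes from 0 reads in both P8 controls to 47 and 110 reads at P28+24 h, and all 10 genes have their highest colour in a P28+24 h library.

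The patterns of the 4 genes over the 7 libraries were set against those of all genes tested by Pearson's r of log2 CPM, as a description in which every point shares its library, depth and group with the others. IL1B ran closest to LPXN (leupaxin, r = 0.987), with CEBPD (0.969) and C1R (complement C1r, 0.968) also among its 5 nearest genes. The nearest named genes to IL1R1 were SPP1 (osteopontin, r = 0.982), ALOX5AP (the activating protein of 5-lipoxygenase, 0.97) and LPXN (0.953). For CASP4-like they were SPI1, the myeloid transcription factor PU.1 (r = 0.995), and C1QC, a chain of complement C1q (0.988). For PYCARD-like the 1 named gene of the 5 was PSMB10, an immunoproteasome subunit (r = 0.983). The other near genes had no name in the sources used here. Names came from the study's gene lists, and every named near gene had been listed there as changed after injury in these libraries. The kinds of genes named therefore follow in part from that choice. Between the members r was 0.945 for IL1B with CASP4-like, 0.937 for CASP4-like with PYCARD-like, 0.933 for IL1B with IL1R1, 0.862 for IL1R1 with CASP4-like, 0.814 for IL1B with PYCARD-like and 0.677 for IL1R1 with PYCARD-like. The receptor and the adaptor were thus the least alike, with the receptor high in the first P7+24 h library, where the adaptor had 3 reads.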

How the data were processed

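Whole read counts per gene were deposited by the authors for 7 libraries. According to the study's methods and the submitters' notes, 100-base single-end reads were trimmed, mapped with Bowtie2 to the opossum genome of Ensembl and counted with HTSeq in its union mode; whether strand was used is not given in the sources used here. The labels and the study's methods disagree on the RNA integrity of the samples that were kept, so RNA quality is not known here. Gene names were taken from the study's gene lists, and no coordinates or sequences were used, since the reference at hand could not be matched to the identifiers. Members and gene lists were chosen with earlier results of these data known.

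Counts were tested with edgeR 4.0.16 in R 4.3.3 (glmQLFit and glmQLFTest, TMM scaling, filterByExpr with a minimum count of 10, which kept 13534 of 21314 genes), with the 4 groups in 1 fit and Benjamini-Hochberg adjustment over all genes tested. Genes were called where the fold was 2 or more and the adjusted p below 0.05. Standard errors were not taken from the fit. Each is the size of the log2 fold change divided by the square root of its test statistic. The standard error of a difference therefore need not follow from those of its parts. The study named the edgeR exact test, which was run as an alternative together with DESeq2 1.42.0, a likelihood ratio test, other scalings, other filters, the run as a block, and each library left out in turn; the last combined with the block was chosen after seeing the data. The run pairs the samples: deviations of same-numbered libraries from their group means correlated at 0.802 (P8 control with P7+24 h), 0.699 (P8 control with P28+24 h) and 0.737 (P7+24 h with P28+24 h) over 13534 genes. Library totals were 3332232 to 6256074 counts. Named genes were the 4 members, the pathway genes with an identifier and, for each member, the 5 genes with the highest Pearson correlation (prior count 2). P-values measure the spread between these libraries, whose number of animals is not settled by the sources, and genes that share reads with a near-identical copy would be uncertain. The fits were tested on simulated data with 200 genes changed 4-fold: at a dispersion of 0.02, over 13182 genes, the quasi-likelihood test of P28+24 h against the P29 control recovered 0 of them without the block and 189 with it. At a dispersion of 0.15, close to that estimated without the block, it recovered 0 and 2 over 13253 genes. The simulation gave every gene a run effect and changed only genes above a minimum mean level. The gain from the block thus follows in part from that setting and need not hold for genes with as few control reads as these 4.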

Additional observations from a re-analysis of the deposited data

How the results depend on the processing

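The log2 fold changes of the 4 genes in the 3 comparisons kept their direction under every setting without a library left out, and with 1 left out without the block. The run block changed 1 member call, IL1B at P28+24 h (1 of 4 called with the replicate block, 0 without). Members called were 2 at P7+24 h, 3 at P28+24 h and 3 for P29 against P8 with the likelihood ratio test and replicate block, and 1 (IL1B) at P28+24 h with the edgeR exact test; RLE size factors, library totals and both other filters called 0. Over all genes the calls without a block were 0, 0, 242 and 0 for P7+24 h, P28+24 h, P29 against P8 and the difference between the ages (69, 157, 2548 and 59 at an unadjusted p under 0.05); with the replicate block they were 2, 102, 2893 and 5, with the likelihood ratio test and block 36, 493, 3242 and 200, with DESeq2 2, 0, 862 and 0, and with the exact test 5, 3 and 972 (not run for the difference). The common dispersion was 0.141 without the block and 0.0181 with it. Scaling by library totals gave 138 calls for P29 against P8 and moved the median log2 fold change of all genes by 0.071 at P28+24 h, −0.298 for P29 against P8 and 0.103 for the difference; no member changed direction. Leaving out 1 library without the block called 0 members throughout, with all-gene calls of 0 to 139 for P29 against P8 and 0 elsewhere.

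With the replicate block and 1 library left out, which leaves 1 residual degree of freedom and a lone library assumed to vary like the rest, members called ranged over 0 to 2 at P7+24 h, 1 to 4 at P28+24 h (4 without the second P28+24 h library), 0 to 3 for P29 against P8, and all-gene calls over 7 to 51, 300 to 960, 2257 to 3468 and 24 to 720 for the difference. The change of PYCARD-like at P7+24 h ranged up to 2.46 (without the first P8 control) and turned to −0.14 with the block and without the second P7+24 h library. Its difference between the ages reached 2.10 with the block and without the second P7+24 h library, and turned negative without the first P8 control (−1.20, or −0.31 with the block), without the first P28+24 h library (−0.70, or −0.41 with the block) and with the block and without the first P7+24 h library (−0.26). The difference turned positive with the block for IL1R1 without the first P28+24 h library (0.30, lowest −1.95 over all libraries left out) and for CASP4-like without the second P7+24 h library (0.57, lowest −1.60). For the 6 other pathway genes the calls were 0 at both ages without the block, 0 and 2 with it, and 1 and 6 with the likelihood ratio test and block. The cause of these shifts was not tested. Counts of 0 to 11 reads per control library limit each fold change, and the P29 control could not be left out.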
